A study of Glycine max with 12 samples.

Results

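Closed soybean flowers (cultivar Magellan) from plants under water deficit (WD) were compared with flowers of well-watered control plants (CT), both grown at a day temperature of 28°C. The 6 libraries, 3 per treatment, were taken by the treatment named in the labels and are 6 of the 12 libraries of the series. The other 6 come from chambers with a day temperature of 38°C and are used here only for a second look at the same genes, with WD+HS (water deficit in heated plants) set against HS (heat stress with full watering). The treatments lasted 10 d, and plants under water deficit received 30% of the water available for transpiration. All plants were inoculated with Bradyrhizobium. Each library was made from 30 to 40 flowers pooled over 8 to 10 plants, so that the replicates measure the variation between pools of whole flowers. Each treatment had its own growth chamber, and an effect of the chamber cannot be told apart from an effect of the treatment. Of the 55897 genes in the count table, 38410 had enough reads to be tested, and 622 of them differed between WD and CT.

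Plants that run short of water accumulate abscisic acid (ABA), which is made from carotenoids and sensed by receptors that switch off a family of protein phosphatases (PP2Cs). ABA is known for closing stomata and for raising the transcripts of protective proteins, of enzymes that make compatible solutes such as proline and raffinose, and of transporters. Growth of young organs depends on loosening of the cell wall, on water uptake through aquaporins and on cell division, and transcripts for these processes are known to decline when water is withheld. Most of the functions given below were established in Arabidopsis or other plants and are background for the soybean genes. They stand for the descriptions in the study's own lists, which were at hand for 345 of the 622 genes.

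Between 14049107 and 22415845 reads were counted on genes in the 6 libraries, with a median of 14923304 in WD and 16282278 in CT. Levels are given as CPM, the reads of a gene scaled to the size of its library with TMM factors. The tissue label was checked with described MADS-box and related floral regulator genes, 8 of which were tested. These had a summed level of 50.8 to 71.9 CPM in WD and 51.3 to 60.5 CPM in CT, with no member at 0 in any library, and none was called different. The 9 photosynthesis genes with a description had summed levels of 176 to 254 CPM in WD and 106 to 239.8 CPM in CT, and none was called. Their median level was uneven within CT, with 11.9, 13.8 and 3.2 CPM in replicates 1, 2 and 3, against 3.3, 3.4 and 5.8 CPM in WD. For 6 genes with descriptions of organelle-encoded proteins, the summed level was 9.6, 10.1 and 19.4 CPM in WD, against 35.0, 45.8 and 9.6 CPM in CT. A further 4 genes have descriptions that name pollen or pollen callose, and they are taken up with the replicates below.

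Under WD, 360 genes were higher and 262 were lower than in CT, at an adjusted p under 0.05 in edgeR. They make up 1.62% of the genes tested, 0.937% for the higher and 0.682% for the lower genes, and 5340 genes had an unadjusted p under 0.05. The changes were small. The median log2 fold change was 0.58 among the higher genes and -0.66 among the lower genes, against a median absolute value of 0.16 over all genes tested. A change of at least 2-fold was seen for 70 higher and 67 lower genes, and a change of at least 4-fold for 17 and 14. All WD libraries lay above all CT libraries for 353 of the 360 higher genes and below them for 261 of the 262 lower genes. Among all genes tested, 8.44% lay above and 8.22% below in this way. The balance of directions moved with the scaling, with 299 higher and 298 lower genes under upper-quartile factors. With limma-trend on log2(FPKM + 1), another test on another measure, the balance moved the other way, with 116 higher and 54 lower genes. A fit of the CT and WD libraries alone called 224 genes, 124 higher and 100 lower. The main fit takes its spread from all 4 treatments, and the WD libraries varied the most of these. Its p-values and standard errors for WD against CT may therefore be too small. The count also moved with single libraries, to 1240 genes without WD replicate 1, 366 without WD replicate 3, 291 without CT replicate 1 and 266 without CT replicate 2.

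Genes of ABA synthesis rose under WD. The list for ABA synthesis, signalling and breakdown held 16 genes, of which 6 rose and 1 fell, with a median log2 fold change of 0.44 against 0.00 over all genes tested. Of these 16 genes, 11 carry a description because the study listed them as changed by WD in these same samples, so that their count is not independent evidence of a direction. All 7 calls were among those 11. In all lists together, 129 of 524 members were called, and 125 of those called came from the study's WD lists. The same limit therefore holds for the lists below. Over all genes tested, 0.937% were called higher and 0.682% lower.

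NCED enzymes cleave carotenoids in the committed step of ABA synthesis. The transcript described as NCED3 from GLYMA_08G176300 was at 13.4, 13 and 13.6 CPM in WD replicates 1, 2 and 3, against 3.97, 4.17 and 3.58 CPM in CT. The 3 WD libraries were nearly alike and each was more than 3-fold above the CT libraries (log2 fold change 1.76 ± 0.14 (SE), adjusted p = 1.09e-06 by edgeR). A second NCED3 gene, GLYMA_15G250100, had 20.1, 15.5 and 18.6 CPM in WD, against 8.41, 8.24 and 6.61 CPM in CT (log2 fold change 1.21 ± 0.14 (SE), adjusted p = 8.53e-05 by edgeR). NCED5, GLYMA_08G096200, rose as well, with 60.8, 54.3 and 58.9 CPM in WD, against 41.8, 38.3 and 38.8 CPM in CT and a log2 fold change of 0.55 (adjusted p = 0.00387 by edgeR). Zeaxanthin epoxidase, GLYMA_11G055700, acts upstream in the same pathway and had 9.35, 7.65 and 10.6 CPM in WD, against 4.69, 4.94 and 5.09 CPM in CT (log2 fold change 0.90 ± 0.18 (SE), adjusted p = 0.00854 by edgeR). In none of these 4 genes did the groups overlap.

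Among the signalling genes, a PP2C described as highly ABA-induced, GLYMA_14G162100, had 7.21, 8.64 and 10.6 CPM in WD, against 3.13, 3.89 and 3.27 CPM in CT (log2 fold change 1.35 ± 0.26 (SE), adjusted p = 0.00751 by edgeR). AFP3, GLYMA_06G204100, whose Arabidopsis relatives bind and restrain the ABA response factor ABI5, had 46.4, 50.7 and 55.7 CPM in WD, against 29.1, 29 and 33.1 CPM in CT (log2 fold change 0.75 ± 0.11 (SE), adjusted p = 0.000808 by edgeR). The ABA receptor gene PYR1-like 4, GLYMA_01G124700, was the member that fell, with 6.28, 4.84 and 4.04 CPM in WD, against 7.75, 9.55 and 9.03 CPM in CT (log2 fold change -0.80 ± 0.17 (SE), adjusted p = 0.0158 by edgeR). That call was lost without WD replicate 3 or CT replicate 2. A second AFP3 gene, GLYMA_01G060300, missed the threshold with 4.64, 4.68 and 6.8 CPM in WD, against 2.87, 3.62 and 3.7 CPM in CT and an adjusted p of 0.186 by edgeR. ABA-responsive element binding factor 2, GLYMA_06G040400, and the PP2C described as homology to ABI1, GLYMA_15G172500, also missed it, with log2 fold changes of 0.53 and 0.35 (adjusted p = 0.162 and 0.211 by edgeR). The receptors PYR1-like 2, GLYMA_06G051800, and PYR1-like 6, GLYMA_02G261900, stayed under 2 CPM in all 6 libraries and were not called.

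The CYP707A genes encode the hydroxylases that break ABA down, and none of the 4 passed the test. GLYMA_02G132200, a CYP707A4 gene, had 43.8, 37.3 and 32.1 CPM in WD, against 32.8, 31.9 and 30.4 CPM in CT, a log2 fold change of 0.25 (adjusted p = 0.263 by edgeR). The other CYP707A4 gene, GLYMA_07G212700, had 7.5, 6.33 and 5.25 CPM in WD, against 6.71, 7.65 and 7.09 CPM in CT, and its groups overlapped. The CYP707A1 gene GLYMA_01G153300 had 1.57, 0.66 and 1.55 CPM in WD, against 2.28, 3.49 and 2.61 CPM in CT, with no overlap but an adjusted p of 0.158 by edgeR. GLYMA_16G109300, also CYP707A1, was at 0.948 ± 0.287 CPM in WD and 1.42 ± 0.795 CPM in CT (SD, n = 3 each).

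Genes for compatible solutes rose in 4 of 11 cases and fell in none. Raffinose synthase makes the trisaccharide raffinose, which protects dehydrating cells, and GLYMA_05G003900 of this family had 28.6, 34.2 and 33.1 CPM in WD, against 19.6, 17.5 and 19.6 CPM in CT (log2 fold change 0.76 ± 0.10 (SE), adjusted p = 0.000322 by edgeR). The proline synthesis gene P5CS2, GLYMA_01G099800, had 62.7, 71.1 and 63.6 CPM in WD, against 46, 40.5 and 37.3 CPM in CT (log2 fold change 0.67 ± 0.10 (SE), adjusted p = 0.000741 by edgeR). The WD libraries differed more among themselves for GLYMA_03G137900, described as seed imbibition 2, a name used for raffinose-pathway hydrolases and synthases, with 36.2, 15.2 and 25.1 CPM in WD, against 9.77, 11 and 8.12 CPM in CT and a log2 fold change of 1.38 (adjusted p = 0.00146 by edgeR). The count was 3 or 4 with any library of the comparison left out. Limma-trend called 1 gene higher on log2(FPKM + 1) and 2 on log2(FPKM + 0.1).

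Dehydration protection proteins gave 4 rises and 1 fall among 12 genes. A dehydrin, GLYMA_17G187600, one of the hydrophilic proteins that accumulate in drying tissue, had 45.4, 45.8 and 53.6 CPM in WD, against 35.1, 34.5 and 26.8 CPM in CT (log2 fold change 0.59, adjusted p = 0.0109 by edgeR). GLYMA_20G091300, of the low temperature and salt responsive family, had 14.4, 12.8 and 10.8 CPM in WD, against 6.32, 8.42 and 6.36 CPM in CT (log2 fold change 0.84, adjusted p = 0.0127 by edgeR). Osmotin 34, GLYMA_05G204600, a defence protein first known from salt-adapted cells, was the member that fell, with 38.5, 57.1 and 41.4 CPM in WD, against 91.6, 75.1 and 67.1 CPM in CT (log2 fold change -0.77 ± 0.14 (SE), adjusted p = 0.00707 by edgeR). These calls rested on single libraries: osmotin was not called without CT replicate 1, and the rises numbered 0 without CT replicate 3, 1 without CT replicate 1, 2 without WD replicate 3 and 6 without WD replicate 1.

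Sucrose metabolism and sugar transport were represented by 38 genes, of which 10 rose and 2 fell, with a median log2 fold change of 0.45. All calls were among the 27 genes that the study listed as changed under WD in these samples. None of the other 11 was called. The polyol and monosaccharide transporter PMT5, GLYMA_04G014000, had 52.1, 62.6 and 55.4 CPM in WD replicates 1, 2 and 3, against 21.9, 20.2 and 26.1 CPM in CT. The lowest WD library was thus at 52.1 CPM and the highest CT library at 26.1 CPM, and the call was kept in each of the 15 alternative fits (log2 fold change 1.32 ± 0.11 (SE), adjusted p = 3.32e-06 by edgeR). Sucrose synthase, which splits sucrose for use in the cell, rose in both described SUS3 genes. GLYMA_03G216300 had 24.7, 24 and 23.2 CPM in WD, against 13.4, 10.9 and 12.7 CPM in CT (log2 fold change 0.96 ± 0.11 (SE), adjusted p = 8.53e-05 by edgeR), and GLYMA_19G212800 had 63.6, 58.9 and 54.3 CPM in WD, against 39.7, 33.1 and 38.5 CPM in CT (log2 fold change 0.67, adjusted p = 0.000825 by edgeR). With a library left out, 7 to 14 genes of the list rose. The 2 falls became 1 without CT replicate 1, CT replicate 3 or WD replicate 2 and 0 without WD replicate 3. Limma-trend on FPKM called 5 genes of the list higher and none lower.

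**Figure D1:**
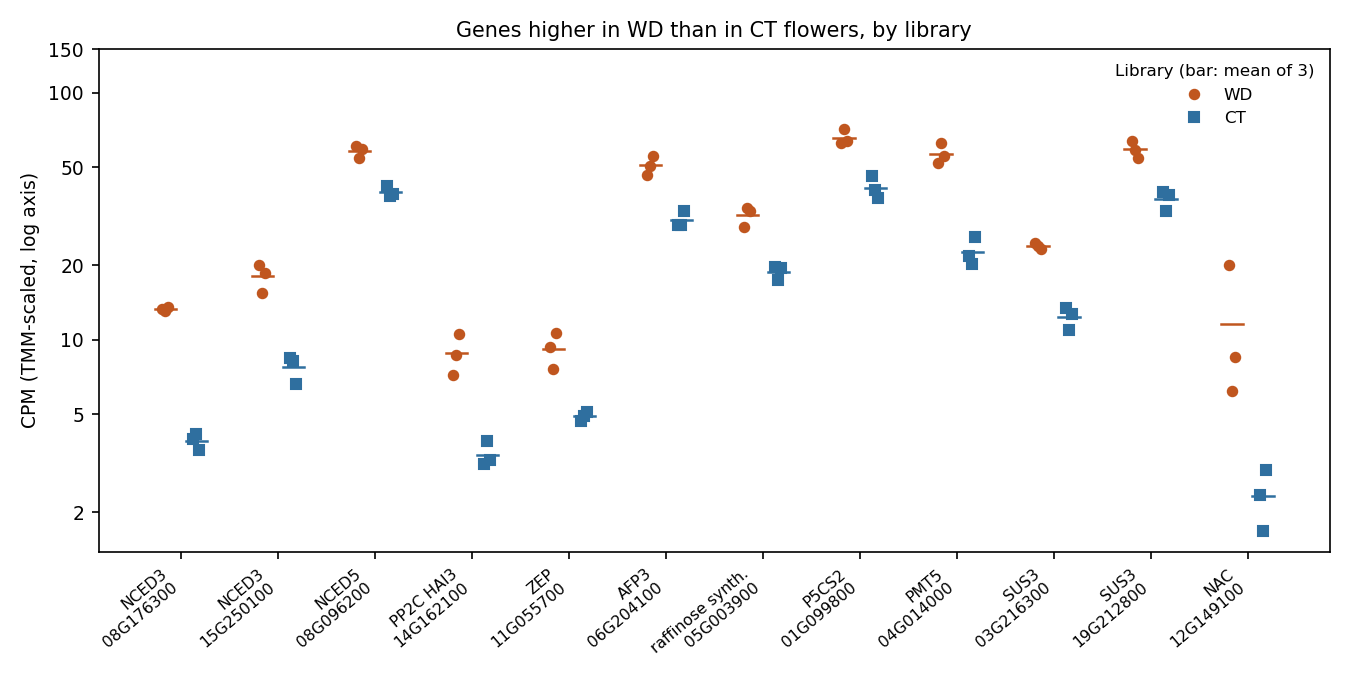
CPM of 12 genes higher in WD, on a log axis, with a circle for each WD library and a square for each CT library and a bar at the mean of 3. In all 12 genes every WD library lies above every CT library; the 3 WD libraries of NCED3 (08G176300) lie between 13 and 13.6 CPM, and those of the NAC gene (12G149100) between 6.22 and 20.1 CPM.

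NAC transcription factors, a plant family with many stress-responsive members, rose in 5 of 13 genes and fell in none. GLYMA_12G149100 had 20.1, 6.22 and 8.55 CPM in WD, against 2.35, 1.68 and 2.97 CPM in CT (log2 fold change 2.32 ± 0.33 (SE), adjusted p = 0.000605 by edgeR). WD replicate 1 stood well above the other WD libraries here, but these too were above all CT libraries, and the call held in every alternative fit. The same pattern was seen for GLYMA_06G248900, with 16.1, 8.14 and 10 CPM in WD, against 3.91, 4.17 and 3.88 CPM in CT (log2 fold change 1.51 ± 0.23 (SE), adjusted p = 0.0012 by edgeR). NAC062, GLYMA_16G016400, rose too, with 23.3, 20.3 and 22.2 CPM in WD, against 14.6, 11.3 and 16.5 CPM in CT (log2 fold change 0.64, adjusted p = 0.0133 by edgeR). The 5 calls became 2 without CT replicate 2, 3 without CT replicate 1, CT replicate 3 or WD replicate 1, and 7 without WD replicate 2. With upper-quartile factors or no factors 3 were called higher, and with DESeq2 6. The fit of CT and WD alone and limma-trend on FPKM each called 2. Leaving out a heated library gave 3 or 4. WRKY, MYB and homeobox factors gave 2 rises and 3 falls among 50 genes, of which MYB73, GLYMA_11G052100, fell to 43.3, 35.5 and 32.7 CPM in WD, against 50.7, 59.6 and 58.6 CPM in CT (log2 fold change -0.60, adjusted p = 0.00521 by edgeR). Homeobox protein 30, GLYMA_09G238400, fell with a log2 fold change of -0.60, and GLYMA_06G187600, a homeodomain-like gene, rose with 0.40 (adjusted p = 0.0166 and 0.0168 by edgeR). The counts of rises and falls were 0 and 1 without WD replicate 3, 0 and 2 without CT replicate 1, 1 and 1 without CT replicate 2, 4 and 3 without WD replicate 1, and 1 and 0 with limma-trend on FPKM.

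Lipoxygenases oxidise unsaturated fatty acids, the first step toward jasmonate and other oxylipins, and this list gave 4 rises and 1 fall among 10 genes. Lipoxygenase 1, GLYMA_04G105900, had the largest rise of any called gene averaging 5 CPM or more and no overlap. Its levels were 3.5, 26 and 25.9 CPM in WD replicates 1, 2 and 3, against 0.326, 0.543 and 0.545 CPM in CT (log2 fold change 5.25 ± 0.63 (SE), adjusted p = 0.000124 by edgeR). WD replicate 1 was far below the other WD libraries, although still above all CT libraries. Lipoxygenase 3, GLYMA_07G039900, was high in all libraries and rose to 90.7, 84.4 and 80.6 CPM in WD, against 60.5, 59.8 and 67.2 CPM in CT (log2 fold change 0.45, adjusted p = 0.00394 by edgeR). A jasmonic acid carboxyl methyltransferase, GLYMA_14G072300, which makes methyl jasmonate, fell with 4.0, 3.74 and 2.76 CPM in WD, against 8.01, 6.93 and 7.39 CPM in CT (log2 fold change -1.08, adjusted p = 0.0208 by edgeR). The call of the methyltransferase was lost without any one CT library, without WD replicate 3 and with limma-trend on FPKM. The rises numbered 2 without WD replicate 1 and without any one of the CT libraries.

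Transporters of nitrogen compounds rose in 8 of 27 genes and fell in none. All 8 were among the 11 that the study listed as changed under WD in these samples. None of the other 16 was called. GLYMA_17G153300, described as nitrate transporter 1.5, had 29, 29 and 24.7 CPM in WD, against 16.2, 17.1 and 14.1 CPM in CT. GLYMA_05G029900, described as nitrate transporter 1:2, had 106, 85.1 and 69 CPM in WD, against 53.4, 54.9 and 59.7 CPM in CT. An amino acid transporter, GLYMA_14G060700, had 18.9, 11.2 and 15.1 CPM in WD, against 7.49, 7.29 and 6.42 CPM in CT, and amino acid permease 3, GLYMA_14G153500, had 18.7, 11.6 and 10.7 CPM in WD, against 5.8, 3.8 and 5.15 CPM in CT. In each of the 4 the WD libraries were all above the CT libraries, with log2 fold changes of 0.80, 0.63, 1.08 and 1.48 (adjusted p = 0.00416, 0.0042, 0.00452 and 0.00496 by edgeR). The 8 calls became 4 without CT replicate 1 or CT replicate 2, and 2 with limma-trend on log2(FPKM + 1). Nitrate reductase 1, GLYMA_06G109200, which carries out the first step of nitrate assimilation, fell, with 17.6, 9.46 and 17.2 CPM in WD, against 42.4, 34.2 and 34.2 CPM in CT (log2 fold change -1.34 ± 0.16 (SE), adjusted p = 0.00011 by edgeR), a call kept in all 15 alternative fits. Among 30 ion, sulfate and phosphate transporters and proton pumps, 4 rose and none fell. All 4 were among the 13 from the study's WD lists, and none of the other 17 was called. The sulfate transporters 3;1 GLYMA_10G028900 and GLYMA_02G145100 had log2 fold changes of 0.52 and 0.51 (adjusted p = 0.0035 and 0.00513 by edgeR), and H(+)-ATPase 9, GLYMA_08G216500, had 0.91 (adjusted p = 0.0403 by edgeR). Those 4 calls became 2 without CT replicate 1, CT replicate 3 or WD replicate 3, and 7 without WD replicate 1. Limma-trend on log2(FPKM + 1) called none of the 30.

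Proteins of the cell wall were among the genes that fell. Arabinogalactan proteins are heavily glycosylated proteins at the cell surface, and the fasciclin-like members carry an adhesion domain as well. Of 20 described genes of this kind, 17 fell and none rose, with a median log2 fold change of -0.62. FLA6, GLYMA_13G293500, fell to 5.86, 5.61 and 4.65 CPM in WD replicates 1, 2 and 3, against 16.4, 15 and 20.8 CPM in CT (log2 fold change -1.69 ± 0.16 (SE), adjusted p = 1.29e-05 by edgeR). AGP18, GLYMA_17G164800, had 66.7, 61.1 and 66.1 CPM in WD, against 96.9, 110.3 and 99.7 CPM in CT (log2 fold change -0.66 ± 0.08 (SE), adjusted p = 0.000125 by edgeR), and FLA8, GLYMA_18G222200, had 50.3, 54 and 51.4 CPM in WD, against 77.6, 89.2 and 81.4 CPM in CT (log2 fold change -0.67 ± 0.08 (SE), adjusted p = 0.00015 by edgeR). AGP15, GLYMA_06G050500, had 8.71, 12.8 and 9.63 CPM in WD, against 24.2, 27.8 and 26.2 CPM in CT (log2 fold change -1.32, adjusted p = 0.000195 by edgeR). These 4 genes were called in all 15 alternative fits, with the WD libraries close together and below all CT libraries. Between 12 and 19 genes of the list fell with a library left out, and 11 with limma-trend on FPKM. Of the 20 genes, 19 were listed by the study as changed under WD in these samples.

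Expansins and xyloglucan endotransglucosylase/hydrolases (XTHs), which loosen and re-join the wall's polymers, gave 8 falls and 4 rises among 34 genes. Both XTH9 genes fell. GLYMA_13G304400 had 65.4, 76.7 and 62.4 CPM in WD, against 122, 152 and 169.7 CPM in CT (log2 fold change -1.12 ± 0.11 (SE), adjusted p = 1.55e-05 by edgeR), and GLYMA_12G197600 had 22.6, 30.5 and 22.6 CPM in WD, against 49.5, 62.3 and 71.1 CPM in CT (log2 fold change -1.27 ± 0.13 (SE), adjusted p = 2.51e-05 by edgeR). XTH16, GLYMA_08G107300, had 6.93, 4.79 and 8.35 CPM in WD, against 14, 14.7 and 18 CPM in CT (log2 fold change -1.23 ± 0.18 (SE), adjusted p = 0.000794 by edgeR). All 3 calls were kept in every alternative fit, while the 8 falls of the list became 4 without CT replicate 3 or WD replicate 3. Pectin enzymes and inhibitors, which act on the gel-like matrix of the wall, gave 6 falls and 2 rises among 42 genes. The 3 with the smallest p were pectin lyase-like genes. GLYMA_18G116400 had 39, 31.5 and 28.5 CPM in WD, against 51, 51.8 and 56.8 CPM in CT, and GLYMA_09G041000 and GLYMA_15G146800 fell by similar amounts (log2 fold changes -0.69, -0.63 and -0.67; adjusted p = 0.00146, 0.00735 and 0.00891 by edgeR). The pectin falls numbered 2 without CT replicate 2 or WD replicate 3, and 9 without WD replicate 1. The rises numbered 0 without any one CT library and 5 without WD replicate 1, and limma-trend on FPKM called 1 rise and no fall.

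**Figure D2:**
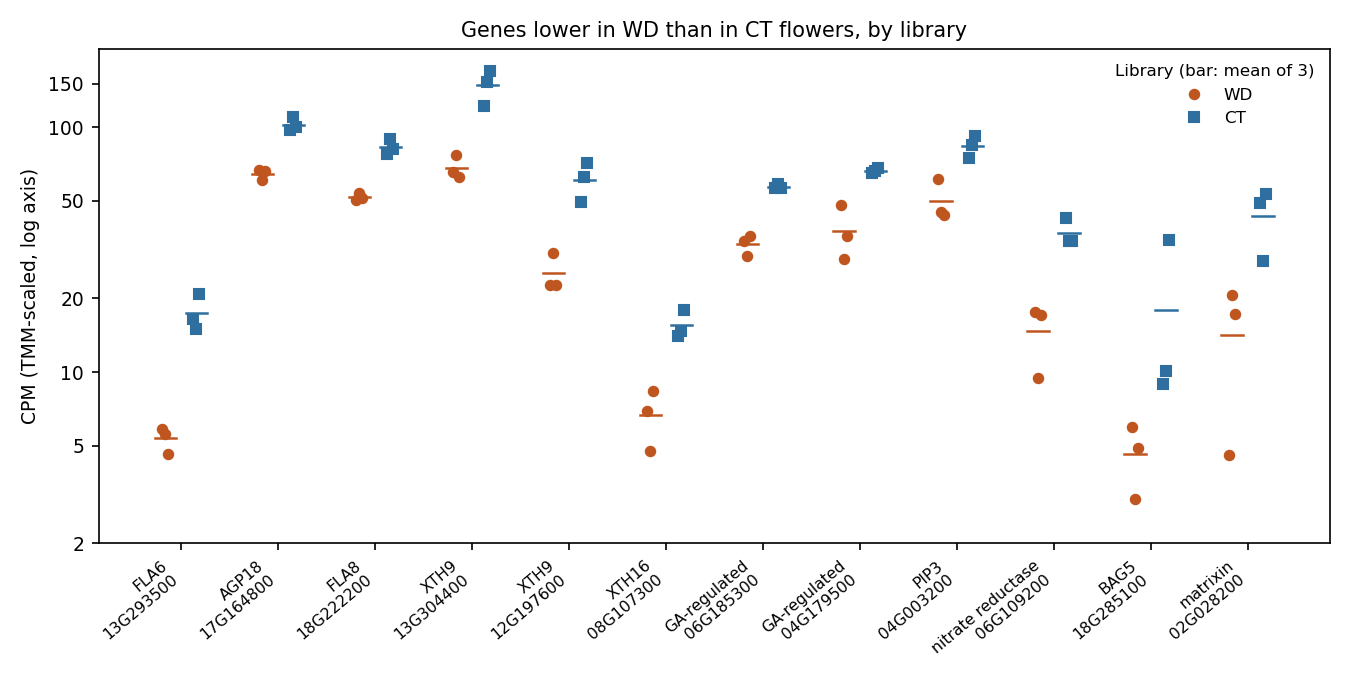
CPM of 12 genes lower in WD, on a log axis, with a circle for each WD library and a square for each CT library and a bar at the mean of 3. In all 12 genes every WD library lies below every CT library; BAG5 (18G285100) shows 1 CT library at 34.7 CPM above the others at 8.93 and 10.1 CPM.

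Gibberellin-regulated proteins are small secreted proteins of growing organs, and with gibberellin synthesis genes they gave 5 falls and 1 rise among 15 genes. GLYMA_06G185300 had 34.3, 29.6 and 36 CPM in WD, against 56.2, 58.4 and 56.2 CPM in CT (log2 fold change -0.78 ± 0.11 (SE), adjusted p = 0.000927 by edgeR). GLYMA_04G179500 had 48.3, 28.9 and 36 CPM in WD, against 64.9, 66.1 and 68.2 CPM in CT, and GLYMA_17G237100 had 13.7, 9.41 and 6.4 CPM in WD, against 20.4, 20.3 and 18.4 CPM in CT (log2 fold changes -0.82 and -1.01, adjusted p = 0.00298 and 0.00348 by edgeR). No library overlapped between the groups in these 3 genes, and the list had 4 to 6 falls with a library left out. It had 3 falls in a fit of CT and WD alone and 1 with limma-trend on FPKM.

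Lipid-transfer proteins, which carry lipids to the cuticle in many tissues, fell in 6 of 21 genes and rose in none. GLYMA_20G062700 had 41.7, 32.7 and 32.8 CPM in WD, against 70.8, 60.6 and 62.4 CPM in CT (log2 fold change -0.86 ± 0.11 (SE), adjusted p = 0.000266 by edgeR), GLYMA_15G119500 had 26.1, 23.4 and 36 CPM in WD, against 48.8, 52.9 and 43.1 CPM in CT (log2 fold change -0.77, adjusted p = 0.00166 by edgeR), and GLYMA_14G018900, at a lower level, had 2.86, 1.27 and 1.62 CPM in WD, against 5.6, 9.19 and 7.51 CPM in CT (log2 fold change -1.98, adjusted p = 0.00327 by edgeR). Another, GLYMA_09G084900, was among the 8 largest falls with 3.86, 3.19 and 5.66 CPM in WD, against 11.9, 9.73 and 9.21 CPM in CT, but 6 of the 15 alternative fits did not call it. The 6 falls became 3 without CT replicate 2 or CT replicate 3 and 9 without WD replicate 1. With limma-trend they numbered 2 on log2(FPKM + 1) and 1 on log2(FPKM + 0.1).

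Aquaporins are membrane channels for water, and 3 of 14 fell while none rose. All 3 were among the 6 that the study listed as changed under WD in these samples. None of the other 8 was called. The plasma membrane aquaporin PIP3, GLYMA_04G003200, had 61.4, 45.2 and 43.7 CPM in WD, against 74.9, 84.7 and 91.6 CPM in CT (log2 fold change -0.74 ± 0.12 (SE), adjusted p = 0.00218 by edgeR). Of the channels of the vacuole membrane, TIP1;3, GLYMA_10G290600, had 0.714, 1.76 and 1.21 CPM in WD, against 4.82, 2.99 and 3.64 CPM in CT, and delta-TIP, GLYMA_13G356000, had 11.1, 7.87 and 8.42 CPM in WD, against 11.4, 15.6 and 14.4 CPM in CT (log2 fold changes -1.60 and -0.61, adjusted p = 0.0228 and 0.0296 by edgeR). The vacuolar calls depended on single libraries. With 1 library left out, the 3 falls became 2 without CT replicate 1, 2 or 3 or WD replicate 2, and 1 without WD replicate 3, and limma-trend on FPKM called none.

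Histones, cyclins and tubulins, taken as signs of dividing and expanding cells, gave 4 falls among 19 genes and no rise. Cyclin P4;1, GLYMA_18G247800, had 4.0, 5.39 and 2.49 CPM in WD, against 8.67, 10.1 and 9.27 CPM in CT (log2 fold change -1.23 ± 0.24 (SE), adjusted p = 0.0102 by edgeR). Cyclin D3;1, GLYMA_06G042900, and beta-6 tubulin, GLYMA_05G207500, also fell, with log2 fold changes of -0.44 and -0.43 (adjusted p = 0.0287 and 0.013 by edgeR). No gene of the list was called without WD replicate 3 or with limma-trend on FPKM, 1 was called lower without CT replicate 1, and 2 without CT replicate 2, CT replicate 3 or WD replicate 2. Flavonoid synthesis gave 2 falls among 5 genes, a chalcone synthase family gene, GLYMA_06G118500, with 23.5, 26.4 and 20.3 CPM in WD, against 33.9, 34 and 32.6 CPM in CT, and a dihydroflavonol reductase-like gene, GLYMA_13G355600, with 21.1, 22.4 and 22.5 CPM in WD, against 28, 36.6 and 28.1 CPM in CT (adjusted p = 0.0421 and 0.0377 by edgeR). Neither was called without CT replicate 1, CT replicate 2 or WD replicate 3.

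Defence-related genes moved both ways. Among 14 protease inhibitors, chitinases and related proteins 2 rose and 2 fell. A Kunitz trypsin inhibitor, GLYMA_16G212500, rose, with 122, 158 and 153 CPM in WD, against 85.2, 97.2 and 73.1 CPM in CT (log2 fold change 0.76 ± 0.11 (SE), adjusted p = 0.000613 by edgeR). Beta-1,3-glucanase 1, GLYMA_03G132700, and chitinase A, GLYMA_20G164900, which act on fungal walls, fell, with 15.4, 13 and 15.1 CPM in WD, against 25.9, 33.2 and 38.2 CPM in CT for the glucanase and 5.71, 5.17 and 5.79 CPM in WD, against 9.51, 8.69 and 13.5 CPM in CT for the chitinase (log2 fold changes -1.17 and -0.93, adjusted p = 0.00146 and 0.016 by edgeR). The inhibitor list had 1 rise and 1 fall without CT replicate 3, 1 and 2 without CT replicate 1, and 4 and 2 without WD replicate 2. Secreted peroxidases gave 2 falls, GLYMA_14G053700 and GLYMA_13G069400 (log2 fold changes -0.64 and -0.45, adjusted p = 0.00225 and 0.0103 by edgeR), and 1 rise among 19 genes. The peroxidase that rose is described with the variable genes below. Without WD replicate 1 the list had 4 rises and 5 falls, without CT replicate 1 it had 0 and 1, without WD replicate 3 it had 1 and 1, and with limma-trend on FPKM none was called.

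Heat shock proteins, co-chaperones and heat shock factors, which keep other proteins folded, gave 9 falls and no rise among 94 genes. BAG5 genes encode co-chaperones of the HSP70 system. GLYMA_18G285100 had 6.0, 3.03 and 4.92 CPM in WD, against 8.93, 10.1 and 34.7 CPM in CT, and GLYMA_18G284900 had 8.14, 4.24 and 7.81 CPM in WD, against 11.8, 13.7 and 28.5 CPM in CT (log2 fold changes -1.96 and -1.43, adjusted p = 0.00707 and 0.00594 by edgeR). CT replicate 3 was far above the other CT libraries in both, yet all WD libraries were below all CT libraries. Without CT replicate 3 the log2 fold change of GLYMA_18G285100 was -1.06 and that of GLYMA_18G284900 was -0.95, and both were still called. A DnaJ protein, GLYMA_03G218600, was even across replicates, with 27.8, 35.8 and 29.8 CPM in WD, against 43.5, 46.1 and 46.1 CPM in CT (log2 fold change -0.53 ± 0.10 (SE), adjusted p = 0.00453 by edgeR). The summed level of the 94 genes was 1969.5, 1340.3 and 1663 CPM in WD replicates 1, 2 and 3, against 1766, 1972 and 2599.7 CPM in CT, so that WD replicate 1 and CT replicate 3 were each the highest of their treatment and the groups overlapped. Which members passed the threshold depended on the method. Limma-trend on log2(FPKM + 1) or log2(FPKM + 0.1) called 2 members higher and none lower. The fit of CT and WD alone called 1 lower. None of the 9 members called in the main fit had the other sign in any fit that tested it. In edgeR the number of falls was 3 without CT replicate 3 or WD replicate 3, 4 without WD replicate 2, 6 without CT replicate 2 and 22 without WD replicate 1.

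The remaining genes among the 8 largest rises and the 8 largest falls fit no list. An aspartyl protease, GLYMA_13G208000, had 38.4, 9.52 and 13.1 CPM in WD, against 5.28, 4.8 and 4.42 CPM in CT (log2 fold change 2.06 ± 0.34 (SE), adjusted p = 0.00218 by edgeR). Homogentisate phytyltransferase 1, GLYMA_13G097800, an enzyme of tocopherol synthesis, had 68.5, 19.5 and 21.1 CPM in WD, against 12.6, 10.6 and 9.7 CPM in CT, and beta-glucosidase 41, GLYMA_06G263100, had 19.6, 5.5 and 4.18 CPM in WD, against 3.58, 3.4 and 2.3 CPM in CT (adjusted p = 0.00875 and 0.0428 by edgeR). In all 3 the rise came mostly from WD replicate 1: without it the log2 fold changes were 1.21, 0.88 and 0.64, and beta-glucosidase 41 was no longer called. Beta-glucosidase 41 also lost its call without any one CT library, and the phytyltransferase without CT replicate 2. On the side of the falls, a matrixin metalloprotease, GLYMA_02G028200, had 4.57, 20.6 and 17.2 CPM in WD, against 48.9, 28.3 and 53.4 CPM in CT (log2 fold change -1.60 ± 0.30 (SE), adjusted p = 0.00609 by edgeR), and a cysteine-rich receptor-like kinase, GLYMA_20G138800, had 1.93, 3.58 and 4.24 CPM in WD, against 8.28, 7.47 and 10.5 CPM in CT (log2 fold change -1.42, adjusted p = 0.00703 by edgeR).

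The most abundant called genes had no description at hand and are known here only by identifier. By mean FPKM, which is scaled for transcript length, they were GLYMA_14G038500, GLYMA_18G259400, GLYMA_12G217300, GLYMA_09G238300 and GLYMA_03G185900. GLYMA_14G038500 had 705, 869 and 902 CPM in WD, against 389, 487 and 379 CPM in CT (log2 fold change 0.98 ± 0.11 (SE), adjusted p = 8.53e-05 by edgeR), or 1947 FPKM on average in WD and 956 in CT. GLYMA_03G185900 fell to 506, 463 and 424 CPM in WD, against 622, 674 and 635 CPM in CT (log2 fold change -0.47, adjusted p = 0.0012 by edgeR). The other 3 rose by log2 fold changes of 0.38, 0.36 and 0.45 (adjusted p = 0.0332, 0.0228 and 0.00615 by edgeR).

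As a set, the WD libraries varied more than those of the other treatments. The common biological coefficient of variation was 17.05% in WD, against 12.86% in CT, and it was 11.87% in WD+HS, against 10.77% in HS. Over 25901 genes averaging 5 CPM or more in the 6 libraries, the correlation of log2(CPM + 1) was 0.964 between WD replicates 1 and 2, 0.971 between 1 and 3, and 0.981 between 2 and 3, against 0.979 to 0.986 between CT libraries. These correlations are across genes, which share their libraries and are not independent. In WD 717 of these genes, or 2.77%, were at least 2-fold apart on that scale between the highest and the lowest replicate, against 77 in CT. The number was 115 in WD+HS, against 60 in HS. WD replicate 1 was the library farthest from the other WD libraries for 577 of the 717 genes, replicate 2 for 100 and replicate 3 for 40. No pair of libraries was a repeat of the same counts, since replicates of WD or CT differed with a variance 4.57 to 12.2 times that of counting error, over genes with at least 10 reads in both.

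**Figure D3:**
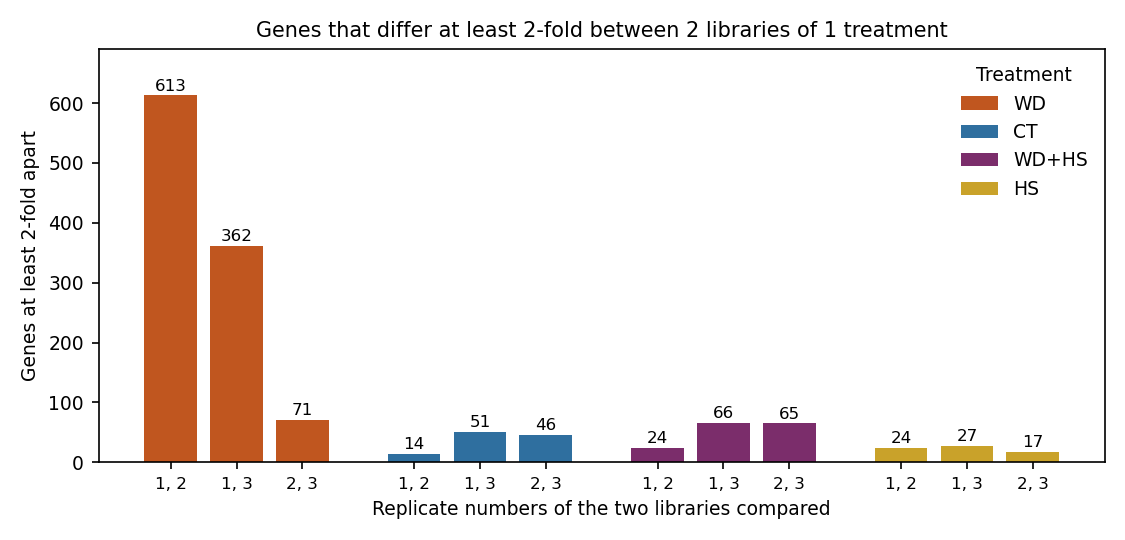
Number of genes at least 2-fold apart in log2(CPM + 1), for each pair of libraries of the same treatment, among genes averaging 5 CPM or more in WD and CT. The pairs with WD replicate 1 show 613 and 362 genes, the other WD pair 71, and the CT pairs 14 to 51.

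In a principal component analysis of the 6 libraries, the first component held 31.0% of the variance and set WD replicates 2 and 3 (loadings -0.66 and -0.46) apart from the CT libraries (0.28 to 0.37), with WD replicate 1 at 0.12, on the side of CT. The second component held 28.5% and had its largest loading, 0.86, on WD replicate 1. A trend with transcript length, as implied by counts and FPKM, was seen within CT rather than WD. The rank correlation of each library's deviation with length was 0.24 in CT replicate 3 and -0.20 in CT replicate 2, against values between -0.07 and 0.07 in the WD libraries. Its part in the calls was not tested.

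All 360 higher genes lay above the CT mean, and all 262 lower genes below it, in each of the 3 WD libraries. The test itself selects genes of this kind. Their median log2 ratio to the CT mean, with 0.5 CPM added, was 0.59, 0.53 and 0.54 in WD replicates 1, 2 and 3 for the higher genes and -0.56, -0.63 and -0.67 for the lower genes. WD replicates 1, 2 and 3 were the most extreme library for 162, 117 and 81 of the higher genes and for 74, 73 and 115 of the lower ones. A 2-fold spread among the WD libraries was found for 33 of the higher genes (9.17%) and 11 of the lower genes (4.20%), against 9.51% of all genes tested on the same scale. Among genes averaging 5 CPM or more it was found for 17 of 320 higher genes (5.31%) and 7 of 227 lower genes (3.08%), against 3.24% of all genes of that level.

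In the 5 called genes with the widest spread among the WD libraries, most of the rise came from 1 or 2 libraries. The undescribed GLYMA_15G071200 had 38.3, 0.275 and 7.48 CPM in WD, against 0.13, 0.0453 and 0.303 CPM in CT (log2 fold change 6.60 ± 1.14 (SE), adjusted p = 0.00351 by edgeR). The peroxidase GLYMA_13G138300 had 98.8, 2.09 and 10.6 CPM in WD, against 1.76, 2.63 and 1.27 CPM in CT (log2 fold change 4.25 ± 0.81 (SE), adjusted p = 0.00758 by edgeR), and without WD replicate 1 its log2 fold change was 1.71. In both genes WD replicate 2 was within the range of the CT libraries. A cytochrome P450 of family 82, GLYMA_19G015300, with 18.6, 0.825 and 1.68 CPM in WD, against 0.717, 0.77 and 0.485 CPM in CT, and the undescribed GLYMA_14G145900, with 7.5, 0.715 and 0.741 CPM in WD, against 0, 0.181 and 0.364 CPM in CT, were high in WD replicate 1, and neither was called without it or without CT replicate 1 or 2. Lipoxygenase 1, given above, is the fifth, and the one among them in which WD replicate 1 was the lowest of the 3.

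A separate set of genes was picked because WD replicate 1 stood apart in them. Of the 577 genes in which it was the farthest WD library, 472 were lower and 105 were higher than in the other WD libraries, and 3 (0.636%) and 13 (12.4%) of them were called, against 2.11% of all genes averaging 5 CPM or more. These sets were chosen after the values had been seen, from the WD libraries alone, and their levels in WD are a description. In the 472 genes the median log2 ratio to the CT mean was -0.58 in WD replicate 1, and 0.68 and 0.43 in WD replicates 2 and 3. WD replicate 1 was below all CT libraries for 436 of them, and WD replicates 2 and 3 were both above all CT libraries for 405. Their mean over 3 WD libraries was thus near CT, while the libraries went opposite ways. Without WD replicate 1, 215 of the 472 were called higher and 1 lower. In that fit, 718 genes were called higher and 522 lower over all genes tested. The 472 genes were chosen for a low WD replicate 1, so that rises without it are in part fixed by the choice. The same holds for their positions against the CT libraries, for which no share over all genes was worked out.

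In heated plants, whose libraries had no part in that choice, 398 of the 472 genes (84.3%) were called lower in WD+HS than in HS, and 1 was called higher. Among all genes averaging 5 CPM or more, 6.78% were called lower. Their median log2 ratio to the CT mean was -1.39, -1.18 and -1.32 in WD+HS replicates 1, 2 and 3, against 0.02, -0.38 and -0.04 in HS. WD replicate 1 thus deviated in the direction in which these genes moved under water deficit at 38°C, and WD replicates 2 and 3 in the other. Of the 105 genes that were high in WD replicate 1, 22 (21.0%) were called lower in WD+HS than in HS, against 6.78% of all genes of that level. Only 2 were called higher, a smaller share than the 4.26% among all genes of that level. Where called at 38°C, these 105 genes thus mostly moved opposite to the deviation of WD replicate 1.

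Among the 472 genes, 44 had a description. Callose synthase 5, GLYMA_04G213100, which in Arabidopsis builds the callose around developing pollen, had 51.1, 136 and 112 CPM in WD, against 65.5, 71.9 and 65.6 CPM in CT, and 25.3, 34.1 and 28.3 CPM in WD+HS, against 92.4, 61.8 and 91.8 CPM in HS (log2 fold change -1.49 ± 0.23 (SE), adjusted p = 0.000148 by edgeR). A pectin methylesterase inhibitor family gene, GLYMA_09G042200, had 8.93, 41 and 25.3 CPM in WD, against 11.9, 11.1 and 13.9 CPM in CT, and 2.87, 2.68 and 1.82 CPM in WD+HS, against 8.65, 7.77 and 10.4 CPM in HS (log2 fold change -1.87 ± 0.38 (SE), adjusted p = 0.00234 by edgeR). Flavonol synthase 1, GLYMA_06G110600, had 14.6, 42.4 and 34.8 CPM in WD, against 18, 20.6 and 22.6 CPM in CT, and 4.81, 8.19 and 6.8 CPM in WD+HS, against 22.4, 16.7 and 27.2 CPM in HS (log2 fold change -1.75 ± 0.28 (SE), adjusted p = 0.000229 by edgeR). In all 3 genes WD replicate 1 was below, and WD replicates 2 and 3 above, every CT library. Callose synthase 5 is also 1 of the 4 genes whose description names pollen or pollen callose. The summed level of those 4 was 109, 183 and 169 CPM in WD replicates 1, 2 and 3, against 113, 121 and 112 CPM in CT. This sum includes callose synthase 5, which was picked for its low WD replicate 1, and is therefore no separate evidence. The median level of the 4 was 27.7, 22.6 and 26.9 CPM in WD, against 22.35, 24.2 and 22.7 CPM in CT. The 3 others, of the Pollen Ole e 1 family, were not called, and WD replicate 1 was below all CT libraries in none of them. On the other side, xyloglucan endotransglycosylase 6, GLYMA_15G169100, had 104, 6.88 and 18.3 CPM in WD, against 9.51, 12.1 and 12 CPM in CT, and beta-galactosidase 12, GLYMA_09G062900, had 42.8, 4.68 and 10.2 CPM in WD, against 5.99, 5.84 and 7.45 CPM in CT; neither was called (adjusted p = 0.0805 and 0.102 by edgeR). These 5 genes were picked after their values were seen. The flowers were whole, pooled and of stages II and III, and the mix of stages in each pool is not given. A smaller share of a cell type, another mix of stages and less RNA per cell therefore cannot be told apart.

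**Figure D4:**
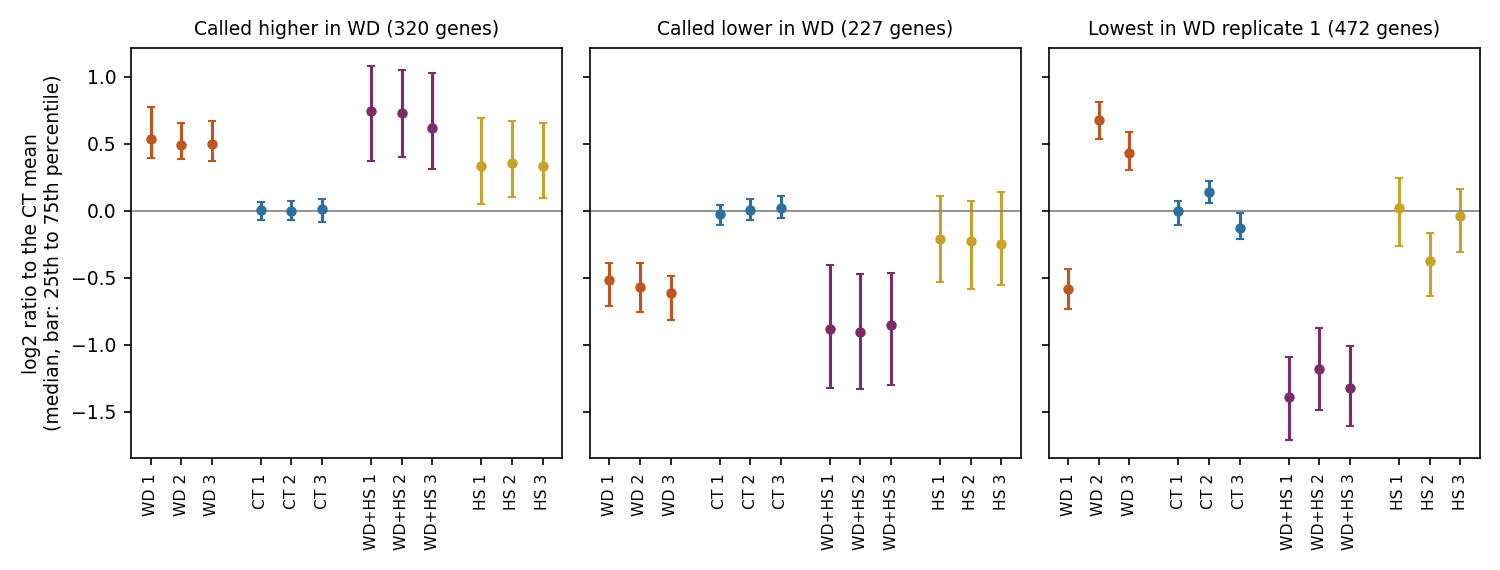
Median log2 ratio to the mean of the CT libraries in each of the 12 libraries, with the 25th to 75th percentile as a bar, for the called genes averaging 5 CPM or more (320 higher, 227 lower) and for the 472 genes lowest in WD replicate 1. The called sets lie between 0.49 and 0.54 and between -0.62 and -0.51 in the WD libraries; the 472 genes lie at -0.58 in WD replicate 1, at 0.68 and 0.43 in replicates 2 and 3, and between -1.39 and -1.18 in WD+HS.

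The called genes were then read in heated plants, in WD+HS against HS, which share no library with WD against CT. Of the 360 genes higher in WD, 162 (45.0%) were also called higher in WD+HS than in HS and 8 were called lower, where 3.21% of all genes tested were called higher. Of the 262 lower genes, 177 (67.6%) were also called lower and 1 higher, where 5.94% of all genes tested were called lower. The sign of the change was the same for 80.8% of the higher and 93.1% of the lower genes, against 51.3% and 48.7% of all genes tested with that sign. Without WD replicate 1, 280 of the 1240 genes called in WD against CT were called the opposite way in WD+HS against HS, against 9 of the 622.

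NCED3 (GLYMA_08G176300) had 39.6, 46.8 and 36.1 CPM in WD+HS, against 8.2, 8.18 and 8.55 CPM in HS (log2 fold change 2.29 ± 0.12 (SE), adjusted p = 2.41e-10 by edgeR), and FLA6 (GLYMA_13G293500) had 3.25, 3.53 and 3.94 CPM in WD+HS, against 13.5, 13.8 and 14.1 CPM in HS (log2 fold change -1.94 ± 0.17 (SE), adjusted p = 2.1e-07 by edgeR). PMT5 (GLYMA_04G014000) had 97.6, 111 and 88.9 CPM in WD+HS, against 22.5, 28.1 and 23.3 CPM in HS (log2 fold change 2.01 ± 0.11 (SE), adjusted p = 5.25e-10 by edgeR). These genes moved the same way at both temperatures, without overlap of the libraries. A difference between the effects of water deficit at 38°C and at 28°C was called for 98 of the 622 genes, 69 of the higher and 29 of the lower ones, against 2.95% of all genes tested. The effect at 28°C chose these genes and is also a term of the difference, so that the excess is in part fixed by the choice. Of the 98, 30 had the same sign at both temperatures and a larger change at 38°C, 11 had the same sign and a smaller change, and 57 had opposite signs. These signs are those of the estimates, whether or not the change at 38°C was called. Of all 622 genes, 9 were called the opposite way at 38°C. Without WD replicate 1 the called differences numbered 424, and 31 to 127 without another library of WD or CT.

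Lipoxygenase 1, GLYMA_04G105900, did not rise in heated plants, with 0.0624, 1.2 and 0.91 CPM in WD+HS, against 0.452, 0.932 and 0.491 CPM in HS, and its difference between temperatures was -5.07 with an adjusted p of 0.00747 on the log2 scale by edgeR. Nitrate reductase 1, GLYMA_06G109200, was even under heat, with 30.1, 35.8 and 33.7 CPM in WD+HS, against 36.7, 36.5 and 35.2 CPM in HS (difference 1.22 with an adjusted p of 0.00232 by edgeR). The gibberellin-regulated gene GLYMA_04G179500 fell further, with 5.62, 7.06 and 8.01 CPM in WD+HS, against 35.1, 43.9 and 44.8 CPM in HS (difference -1.76 with an adjusted p of 0.000153 by edgeR), and so did XTH9, GLYMA_13G304400, with 28.7, 27.3 and 26.8 CPM in WD+HS, against 158, 129 and 157 CPM in HS (difference -1.31 with an adjusted p of 0.00015 by edgeR). The NCED3 gene GLYMA_15G250100 rose further, with 73.1, 62.9 and 55.4 CPM in WD+HS, against 12, 9.94 and 11.3 CPM in HS (difference 1.32 with an adjusted p of 0.000581 by edgeR).

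**Figure D5:**
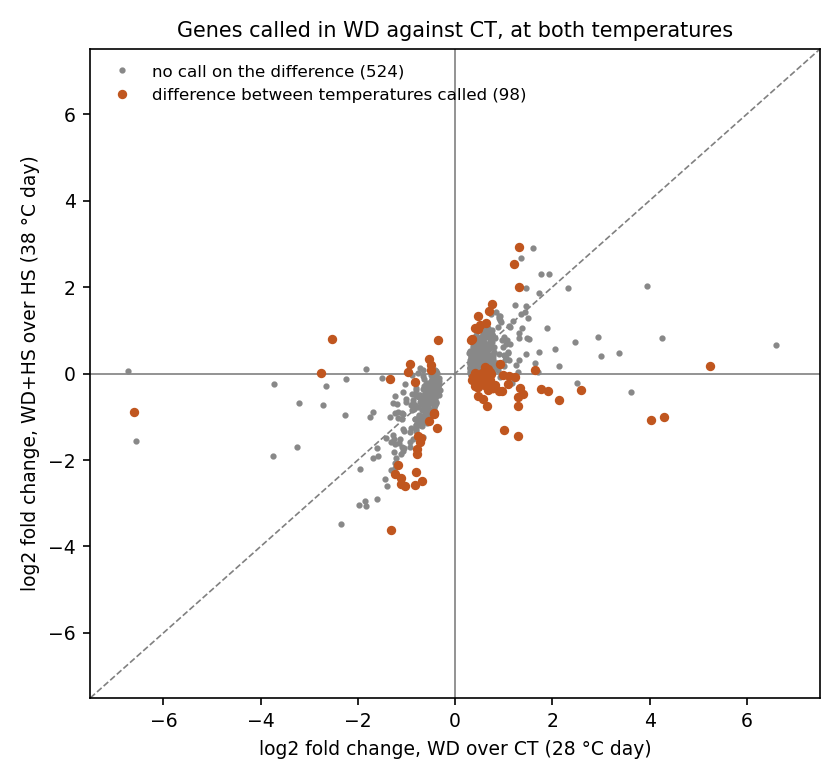
Log2 fold change of WD over CT (day 28°C) on the horizontal axis and of WD+HS over HS (day 38°C) on the vertical axis, for the 622 genes called in WD against CT; the dashed line marks equal changes, and 98 genes with a called difference between the temperatures are drawn larger. Lower genes lie mostly in the lower left, where 244 of 262 have the same sign. Of the 98, 57 lie where the signs of the estimates are opposite, whether or not the change at 38°C was called.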

How the data were processed

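RNA of pooled closed flowers was sequenced as paired reads, and per the study's methods reads were trimmed by Trim Galore before alignment with HISAT2 2.2.1 (submitters' processing notes) against the Ensembl Plants soybean genome. The deposited counts are raw reads per gene and library, whose counting program is not given in the sources used here. The deposited FPKM values come from Cufflinks, run by the authors on single libraries. The study's supplementary gene lists served for descriptions only, and no value in them was used.

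Libraries were grouped by the treatment in their labels, and the replicates of a treatment are separate pools of flowers. Counts were filtered with filterByExpr (minimum count 10), scaled by TMM and fitted for all 12 libraries in 1 model of 4 groups with edgeR 4.0.16 in R 4.3.3, using the quasi-likelihood test, Benjamini-Hochberg adjustment over 38410 genes and a threshold of 0.05. Contrasts were WD against CT, WD+HS against HS, and their difference. Standard errors (SE) were obtained by dividing the size of a log2 fold change by the root of its F statistic, and may be too small for genes with few reads. The procedure was tested on simulated data for WD against CT: of 50 genes each, 49 and 47 were called at log2 changes of 1 and -1, and 9 of 37670 unchanged genes. The changed genes averaged at least 5 CPM, and all treatments were simulated with the same spread per gene. The wider spread of the real WD libraries was not part of the simulation, which therefore gives no error rate for these data.

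Members and gene lists were chosen with earlier results of these data known. Lists were made by words in the gene descriptions of the study's readable lists (2464 genes, of which 810 were listed for WD), so genes without a description are in no list; the reference gene table shares no identifiers with the files. Named genes are the 8 largest rises and 8 largest falls (called, mean of at least 5 CPM, no overlap), the 3 called genes with the smallest p of each list and every ABA gene, the 5 called genes most variable in WD and the 5 with the highest FPKM; others are marked. Alternatives were DESeq2 1.42.0, upper-quartile or no factors, other count filters, a replicate block, a fit of CT and WD only, limma-trend (limma 3.58.1) after adding 1 or 0.1 to the FPKM and taking log2, a minimum change, and each library left out. Leaving out HS and WD+HS libraries was chosen after seeing the data.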

Additional observations from a re-analysis of the deposited data

Results flagged for a closer look

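For 14 of the called genes named above, the effect of water deficit differed between the temperatures by edgeR's test of the difference itself (adjusted p under 0.05). The values below are log2 fold changes of WD over CT at 28°C and of WD+HS over HS at 38°C, and the fitted difference, 38°C minus 28°C. Groups of 3 libraries are too small for a test of single outlying libraries, and none was made.

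In 9 of the genes the change had the same sign and was larger at 38°C. NCED3 (GLYMA_15G250100) changed by 1.21 at 28°C and by 2.53 at 38°C, a difference of 1.32 with an adjusted p of 0.000581. Raffinose synthase (GLYMA_05G003900) changed by 0.76 at 28°C and by 1.62 at 38°C, a difference of 0.85 with an adjusted p of 0.00141. PMT5 (GLYMA_04G014000) changed by 1.32 at 28°C and by 2.01 at 38°C, a difference of 0.69 with an adjusted p of 0.018. The DnaJ protein (GLYMA_03G218600) changed by -0.53 at 28°C and by -1.11 at 38°C, a difference of -0.57 with an adjusted p of 0.0175. XTH9 (GLYMA_13G304400) changed by -1.12 at 28°C and by -2.42 at 38°C, a difference of -1.31 with an adjusted p of 0.00015. XTH16 (GLYMA_08G107300) changed by -1.23 at 28°C and by -2.33 at 38°C, a difference of -1.10 with an adjusted p of 0.0181. The gibberellin-regulated gene (GLYMA_06G185300) changed by -0.78 at 28°C and by -1.75 at 38°C, a difference of -0.97 with an adjusted p of 0.00161. The gibberellin-regulated gene (GLYMA_04G179500) changed by -0.82 at 28°C and by -2.58 at 38°C, a difference of -1.76 with an adjusted p of 0.000153. Beta-6 tubulin (GLYMA_05G207500) changed by -0.43 at 28°C and by -0.90 at 38°C, a difference of -0.47 with an adjusted p of 0.047.

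In the other 5 the change at 38°C was smaller or of the other sign, and it was not called. Lipoxygenase 1 (GLYMA_04G105900) changed by 5.25 at 28°C and by 0.18 at 38°C, a difference of -5.07 with an adjusted p of 0.00747. Nitrate reductase 1 (GLYMA_06G109200) changed by -1.34 at 28°C and by -0.12 at 38°C, a difference of 1.22 with an adjusted p of 0.00232. NCED5 (GLYMA_08G096200) changed by 0.55 at 28°C and by -0.21 at 38°C, a difference of -0.76 with an adjusted p of 0.00243. The amino acid transporter (GLYMA_14G060700) changed by 1.08 at 28°C and by -0.25 at 38°C, a difference of -1.33 with an adjusted p of 0.00819. The undescribed abundant gene (GLYMA_14G038500) changed by 0.98 at 28°C and by -0.04 at 38°C, a difference of -1.02 with an adjusted p of 0.00108.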

How the results depend on the processing

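The counts given are the genes called in WD against CT (622; 360 higher and 262 lower), the called list members (129), the called genes that moved the same way in heated plants (339) and those with a called difference between the temperatures (98). With DESeq2 1010 genes were called, 592 higher and 418 lower, and 171 had a difference between the temperatures; 616 of the 622 were among the 1010. With no filter beyond 1 count, 1016 genes were called, 563 higher and 453 lower, and 231 had a difference. A fit of CT and WD alone called 224 genes, 124 higher and 100 lower, and 71 list members. Limma-trend on log2(FPKM + 1) called 170 genes, 116 higher and 54 lower, with 48 list members, 105 shared with heated plants and 24 differences. On log2(FPKM + 0.1) it called 168 genes, 122 higher and 46 lower, with 47 list members, 100 shared and 22 differences. A minimum change of 2-fold left 137 genes, 70 higher and 67 lower, with 47 list members, 58 shared and 28 differences. With each library left out in turn, the called genes ran from 266 to 1240, the higher from 141 to 718, the lower from 125 to 522, the list members from 83 to 175, the genes shared with heated plants from 183 to 509 and the differences between temperatures from 31 to 424. The genes at least 2-fold apart among the WD libraries numbered 717, and 1906 over all genes tested and 649 with the deposited FPKM.

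Of 1395 values of named genes in other fits, 1177 kept direction and side of the threshold and 205 kept the direction but missed the threshold; no called gene changed direction, and 23 of the 80 called genes were called in every fit that tested them. The cause of these differences was not tested. The labels do not say whether replicate numbers pair the samples, and the main fit treated them as unpaired. The deviations of WD and CT libraries with the same number correlated at -0.02, 0.07 and -0.12, and not every library was closest to its own number. With 3 libraries per treatment these values cannot show that pairing is absent. With the replicate number as a block, 578 genes were called, 327 higher and 251 lower, with 123 list members, 321 genes shared with heated plants and 83 differences. Errors cover 3 pools per treatment, and for genes with few reads counting error adds to them.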
